A study of Homo sapiens with 6 samples.

Results

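The microRNA genes of the imprinted cluster on chromosome 14q32 were examined in MDA-MB-231-Luc-D3H1 cells, a luciferase-carrying derivative of a triple-negative breast cancer line, with Affymetrix Human Gene 2.0 ST arrays, 6 in number. Of the 3 stable lines compared, "vector" carried an empty GFP vector, whereas "shRNA1" and "shRNA2" each carried a different short hairpin RNA against LincIN, a long intergenic noncoding RNA. Each line gave 2 arrays, from 2 independent experiments, with no drug, time course or further allele. The labels do not tie a replicate number to an experiment, so p-values measure the spread between these samples only. The members were the probe sets whose annotated symbol was one of 50 listed microRNA genes of the DLK1-MEG3 domain. Among the 16098 probe sets with exactly 1 gene symbol, 50 belonged to 49 of these genes. MIR376A1 had 2 probe sets, every other member had 1, and MIR433 was not analysed here. The cluster was chosen by its values in the shRNA2 cells, where MIR539 and MIR376A2 had been seen to differ from the other lines. All values of the members in comparisons with shRNA2 are therefore a description, with no test.

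In human and mouse, the microRNAs of the DLK1-MEG3 domain are transcribed in one direction. They are transcribed together with the long noncoding RNAs MEG3, MEG8 and MEG9 and with small nucleolar RNAs. Expression comes from the maternally inherited chromosome, whereas DLK1 and RTL1 are expressed from the paternal one. The primary transcript is cut into hairpins by DROSHA with DGCR8, the hairpins are exported by XPO5, and DICER1 trims them to mature microRNAs of about the length of the sequences below. Bases 2 to 8 of a mature microRNA, its seed, do most of the pairing with target messages.

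The RefSeq tables (GRCh38.p14) gave 90 mature sequences for the 49 genes, and hairpins for 45 of them. These hairpins lay on the plus strand and were 61 to 114 bases long. Those of MIR432, MIR370, MIR381 and MIR412 were not used here. From MIR770 to MIR656 the genes spanned 214 kb. The mature sequences of the 3 genes that differed most from vector cells, of the family to which one of them belongs, and of 1 gene with a shared seed are shown 5′ to 3′, with the seed in capitals.

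hsa-miR-539-5p: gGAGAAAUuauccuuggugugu
hsa-miR-539-3p: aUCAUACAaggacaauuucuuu
hsa-miR-485-3p: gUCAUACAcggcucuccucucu
hsa-miR-376a-3p: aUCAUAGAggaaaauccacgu
hsa-miR-376b-3p: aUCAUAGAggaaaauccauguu
hsa-miR-376c-3p: aACAUAGAggaaauuccacgu
hsa-miR-376a-2-5p: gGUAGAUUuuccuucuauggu
hsa-miR-376a-5p: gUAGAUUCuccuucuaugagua
hsa-miR-376b-5p: cGUGGAUAuuccuucuauguuu
hsa-miR-376c-5p: gGUGGAUAuuccuucuauguu
hsa-miR-412-5p: uGGUCGACcaguuggaaaguaau
hsa-miR-412-3p: aCUUCACCugguccacuagccgu

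MIR376A1 and MIR376A2 both encode miR-376a-3p, and miR-376b-3p carries the same seed, UCAUAGA. The 5′ arms of the 2 genes for miR-376a differ in sequence and in seed. miR-376c-3p has another seed, ACAUAGA, whereas miR-376c-5p and miR-376b-5p share GUGGAUA. The seed UCAUACA was common to miR-539-3p and miR-485-3p. In all, 13 seeds were shared by more than 1 member gene and involved 21 of the 49 genes. miR-379-3p and miR-411-3p, for example, have the seed AUGUAAC, and miR-300 and miR-381-3p have AUACAAG.

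Values are log2 signals after robust multi-array averaging, and no call of detection accompanies them. A low signal cannot be told from background, and the heights of different probe sets cannot be set against each other. The RNA came from TRIzol extraction with a column clean-up that keeps mainly longer RNA, so a signal may stem from the precursor, and mature microRNAs were not measured apart. The position of the probes within each hairpin is not given in the sources used here. The medians of all values lay between 6.12 and 6.30 on the 6 arrays. LincIN has no named probe set, so its knockdown was not checked, and each line is named only by its label. Markers of the mesenchymal breast cancer type (VIM, CD44, ZEB1, FN1 and AXL) had log2 signals of 8.25 to 13.14. The luminal list ran from 4.65 to 9.02, with ESR1, PGR and FOXA1 between 4.65 and 6.17, ERBB3 between 5.93 and 6.74 and GATA3 between 7.78 and 9.02. Without detection calls these levels neither show nor exclude a cell type. In a bulk extract, fewer cells with a transcript and less of it per cell cannot be told apart.

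The member signals ranged from 2.34 to 8.89. The 2 arrays of a group differed within members by an SD of 0.456 in vector, 0.391 in shRNA1 and 0.380 in shRNA2 cells. The corresponding SDs over all named probe sets were 0.397, 0.395 and 0.231. MIR323A had the widest gap between replicates, 1.38 in vector cells, and MIR411 reached 1.08 in shRNA2 cells. Averaged over the 6 arrays, 38 of the 50 members were among the dimmest 25% of the named probe sets, at or below 5.87, which was the case for 58.4% of the probe sets of other microRNA genes. The 12 brighter members were MIR770, MIR665, MIR431, MIR127, MIR758, MIR494, MIR654, MIR1185-2, MIR539, MIR134, MIR541 and MIR412. MIR127, whose product is known as a repressor of the oncogene BCL6, had signals of 8.52 and 8.40 on the vector arrays, 8.89 and 8.18 on the shRNA1 arrays and 8.35 and 8.02 on the shRNA2 arrays.

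**Figure D1:**
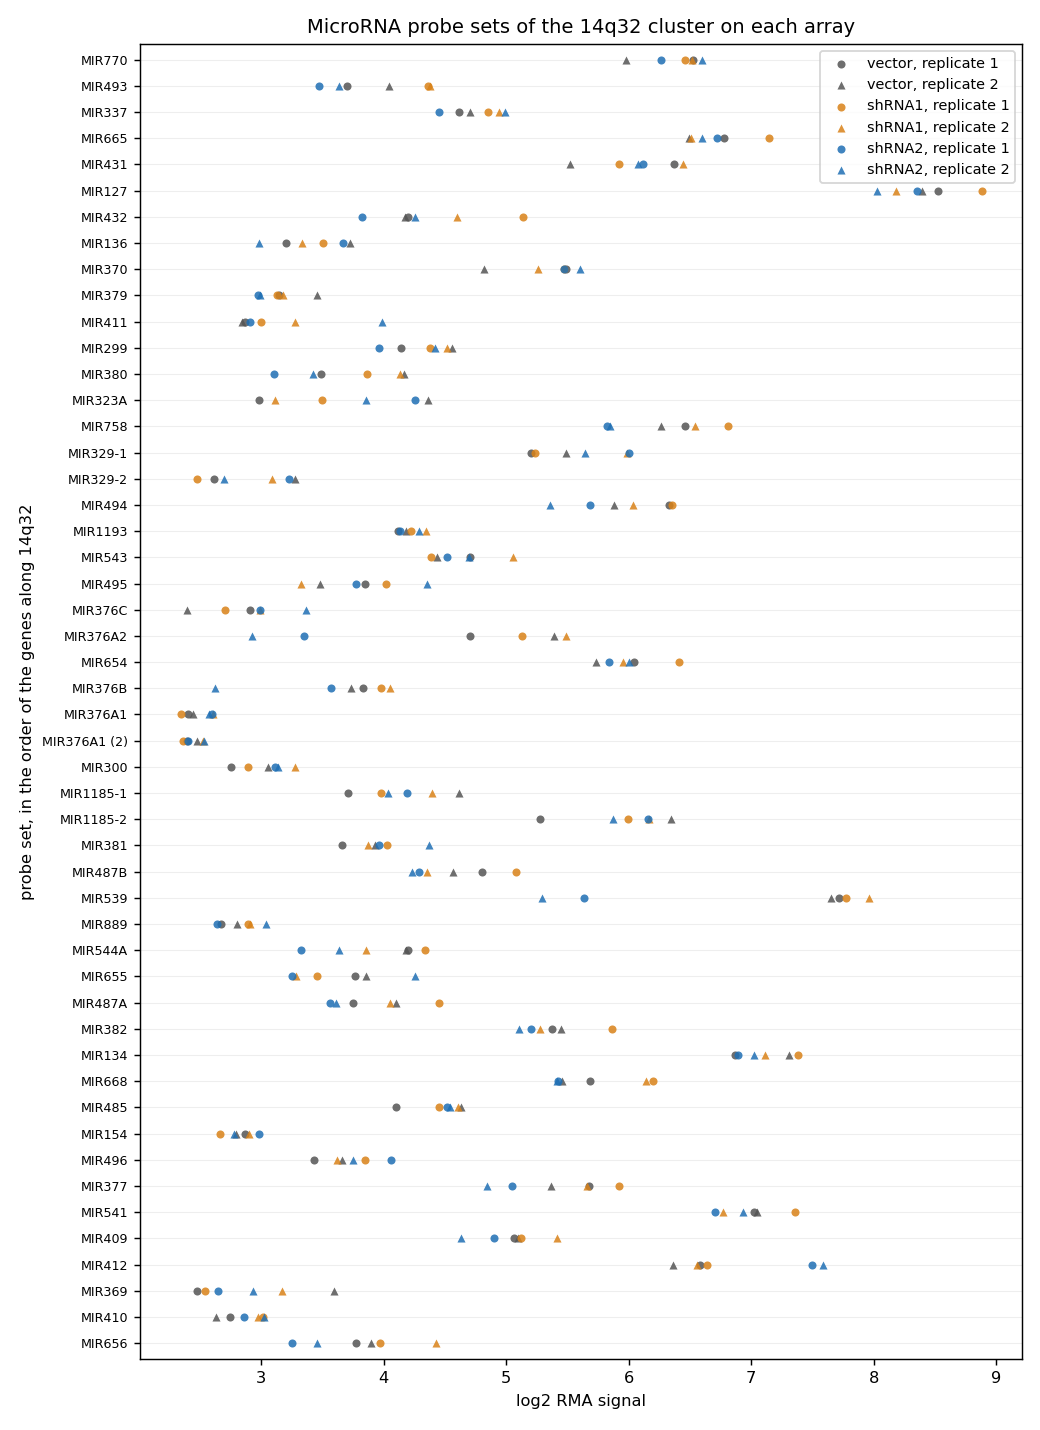
Log2 RMA signal (horizontal axis) of the 50 microRNA probe sets, in their order along 14q32 (vertical axis), with 1 point for each of the 6 arrays, coloured by line and shaped by replicate. For MIR539 and MIR376A2 both shRNA2 points lie well to the left of the other 4, for MIR412 both lie to the right, and for most other members the 3 lines are mixed or close together.

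The cells with shRNA1 were set against vector cells to see whether the first shRNA changed the cluster. Log2 differences are shRNA cells minus vector cells, so that a negative value means a lower signal in shRNA cells. This direction opposes that of the study's own list of changed genes, which gives vector over shRNA. No member passed an adjusted p of 0.05 with limma, whereas 1.87% of all named probe sets and 0.425% of other microRNA probe sets did. At an unadjusted p below 0.05, limma counted 3 members, MIR493, MIR432 and MIR668, all higher with shRNA1, beside 12.1% of all named probe sets. The methods' t-test also counted 3 members at that level and none after adjustment. These members lay in the stretch from MIR379 to MIR656, so MIR493 and MIR432 were not among them. That level was reached by 1276 of the 16098 named probe sets with the same test. The lowest limma adjusted p among members was 0.14, for MIR668.

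The differences with shRNA1 were small and mostly positive. They ran from -0.44 to 0.68 with a median of 0.17, beside a median of 0.10 for the 1176 probe sets of other microRNA genes and 0.05 for all named probe sets. Of the 50 members, 42 (84%) lay above 0, a count that fell to 36 with arrays centred on their medians and to 38 after quantile normalization. The share above 0 was 66.8% for other microRNA genes and 58.9% for all named probe sets. The count also fell to 34 without vector replicate 1. In 13 members both shRNA1 arrays were above both vector arrays, beside 21.7% of all named probe sets, and in MIR655 alone both were below, beside 15%.

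MIR432, which lies antisense within RTL1, had log2 signals of 4.20 and 4.17 in vector, 5.14 and 4.60 in shRNA1, and 3.82 and 4.25 in shRNA2 cells. MIR668 gave 5.69 and 5.46 in vector, 6.20 and 6.14 in shRNA1, and 5.42 and 5.41 in shRNA2 cells. MIR493 gave 3.70 and 4.05, then 4.36 and 4.38, then 3.47 and 3.63 in the same order. For all 3 genes the shRNA1 arrays did not overlap with those of either other line. Over vector, shRNA1 differed by 0.68 ± 0.23 (SE, limma adjusted p = 0.276) for MIR432, by 0.60 ± 0.15 (adjusted p = 0.14) for MIR668 and by 0.50 ± 0.17 (adjusted p = 0.291) for MIR493.

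At the other end, MIR655, whose product is known to repress the mesenchymal regulator ZEB1, read 3.77 and 3.86 in vector, 3.46 and 3.28 in shRNA1, and 3.26 and 4.26 in shRNA2 cells. MIR323A read 2.98 and 4.36 in vector, 3.50 and 3.11 in shRNA1, and 4.26 and 3.85 in shRNA2 cells. MIR369 read 2.48 and 3.59 in vector, 2.54 and 3.17 in shRNA1, and 2.65 and 2.94 in shRNA2 cells. For MIR323A and MIR369 the vector arrays enclosed both shRNA1 arrays. The differences with shRNA1 were -0.44 ± 0.30 for MIR655 (adjusted p = 0.671), -0.37 ± 0.42 for MIR323A (adjusted p = 0.82) and -0.18 ± 0.37 for MIR369 (adjusted p = 0.915). Without vector replicate 2, the difference turned to 0.32 for MIR323A and to 0.37 for MIR369.

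**Figure D2:**
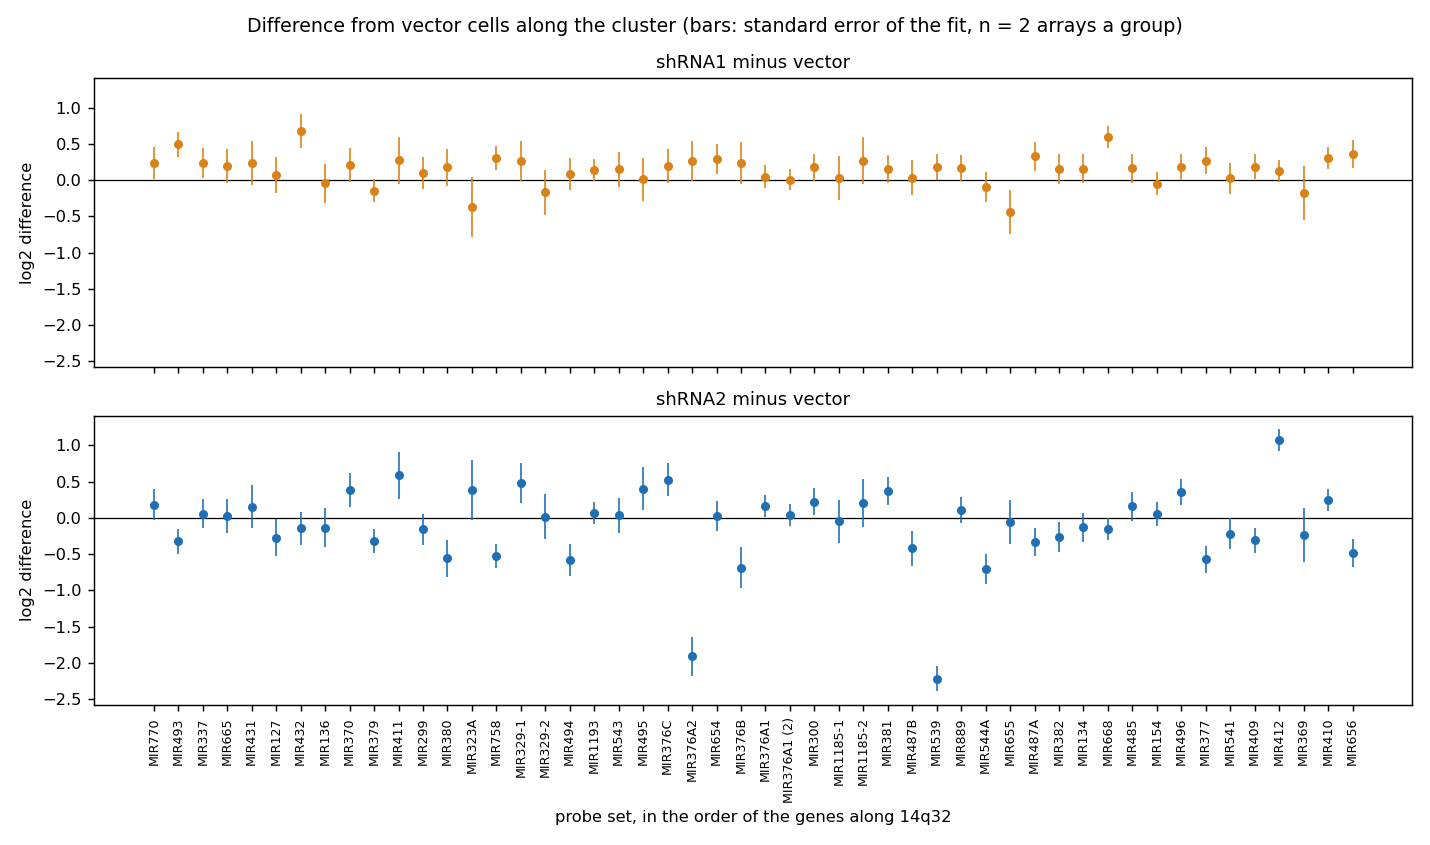
Log2 difference from vector cells (vertical axis) for each of the 50 probe sets in their order along 14q32 (horizontal axis), for shRNA1 above and shRNA2 below, with bars of 1 standard error of the fit (n = 2 arrays a group). The shRNA1 points stay between -0.44 and 0.68, while with shRNA2 MIR539 and MIR376A2 lie near -2 and MIR412 near 1, apart from their neighbours.

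With shRNA2, MIR539 and MIR376A2 were lower and MIR412 was higher than in vector cells, while the differences of the cluster were centred near 0. The median over the 50 members was -0.02, beside -0.10 for other microRNA genes and -0.04 for all named probe sets. Exactly 25 members lay above 0 and 25 below, a split that became 22 to 28 after quantile normalization and 20 to 30 without vector replicate 1. The adjusted p threshold of 0.05 was passed by 3 members, beside 2.57% of all named probe sets and 2.38% of other microRNA probe sets. Of these 3, MIR412 was higher (1.07% of all named probe sets) and MIR539 and MIR376A2 were lower (1.5%). Because the members were taken up on these differences, the count is not evidence about the cluster. Leaving out a vector or shRNA2 array left 1 array in that group. Fewer members and fewer of all named probe sets were then called.

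The MIR539 hairpin lies at chr14:101047321-101047398 (GRCh38.p14, plus strand), between MIR487B and MIR889, and yields the miR-539-5p and miR-539-3p shown above. MIR539 had log2 signals of 7.71 and 7.66 on the vector arrays, 7.78 and 7.96 on the shRNA1 arrays and 5.64 and 5.29 on the shRNA2 arrays. Both shRNA2 arrays were far below the other 4, and the 2 shRNA1 arrays were slightly above vector. With shRNA2 the difference was -2.22 ± 0.17 (SE), a 4.66-fold lower signal. With shRNA1 it was 0.18 ± 0.17 (limma adjusted p = 0.776).

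The genes next to MIR539 gave smaller differences. MIR487B, upstream, read 4.80 and 4.56 in vector, 5.08 and 4.35 in shRNA1, and 4.29 and 4.23 in shRNA2 cells, a difference of -0.42 ± 0.25 with shRNA2. MIR889, downstream, read 2.67 and 2.80 in vector, 2.89 and 2.91 in shRNA1, and 2.64 and 3.04 in shRNA2 cells, a difference of 0.11 ± 0.18. Its shRNA2 arrays enclosed the vector arrays. MIR485, whose miR-485-3p has the seed of miR-539-3p, differed by 0.16 ± 0.20 with either shRNA.

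The MIR376 family is a run of near-copies, known in human and mouse for editing of its precursors by ADAR enzymes. Their hairpins lie in the order MIR376C, MIR376A2, MIR376B and MIR376A1, and that of MIR376A2 is at chr14:101040069-101040148. Aligned with MIR376A2, the MIR376B hairpin was identical at 72 of 80 bases, that of MIR376A1 at 60 of 68 and that of MIR376C at 57 of 66. Whether the probe sets of such near-copies can be told apart by hybridization was not tested.

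MIR376A2 had log2 signals of 4.70 and 5.39 on the vector arrays, 5.13 and 5.49 on the shRNA1 arrays and 3.35 and 2.93 on the shRNA2 arrays. Both shRNA2 arrays were below all 4 others, and the shRNA1 arrays overlapped with vector. The difference with shRNA2 was -1.91 ± 0.27 (SE). Both shRNA2 signals were low in the range of the members, where a signal cannot be told from background, and no fold is given. With shRNA1 it was 0.26 ± 0.27 (limma adjusted p = 0.804).

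MIR376B had 3.83 and 3.73 in vector, 3.98 and 4.05 in shRNA1, and 3.57 and 2.63 in shRNA2 cells, a difference of -0.69 ± 0.29 with shRNA2. The 2 shRNA2 arrays were below vector but lay further apart than the groups did, and the difference was -0.22 without shRNA2 replicate 2. MIR376C read 2.91 and 2.40 in vector, 2.70 and 2.99 in shRNA1, and 2.99 and 3.37 in shRNA2 cells, a difference of 0.53 ± 0.23 in the other direction. The first probe set of MIR376A1 read 2.40 and 2.45 in vector, 2.34 and 2.61 in shRNA1, and 2.60 and 2.57 in shRNA2 cells. The second read 2.39 and 2.48, then 2.37 and 2.52, then 2.40 and 2.53. All 12 of these MIR376A1 values lay near the lower end of the members. MIR654, which lies between MIR376A2 and MIR376B, differed by 0.03 ± 0.21 with shRNA2, with overlapping arrays. The 2 genes that encode miR-376a-3p gave different values with shRNA2, -1.91 for MIR376A2 beside 0.16 ± 0.16 and 0.03 ± 0.15 for the probe sets of MIR376A1.

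MIR412 had log2 signals of 6.58 and 6.36 on the vector arrays, 6.64 and 6.56 on the shRNA1 arrays and 7.50 and 7.58 on the shRNA2 arrays. Both shRNA2 arrays exceeded the other 4. The difference with shRNA2 was 1.07 ± 0.15 (SE), a 2.10-fold higher signal, and with shRNA1 it was 0.13 ± 0.15 (limma adjusted p = 0.842). Its upstream neighbour MIR409 read 5.06 and 5.10 in vector, 5.12 and 5.42 in shRNA1, and 4.90 and 4.63 in shRNA2 cells, and differed by -0.31 ± 0.18 with shRNA2. The downstream neighbour MIR369, given above, differed by -0.24 ± 0.37. Neither neighbour was higher with shRNA2.

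**Figure D3:**
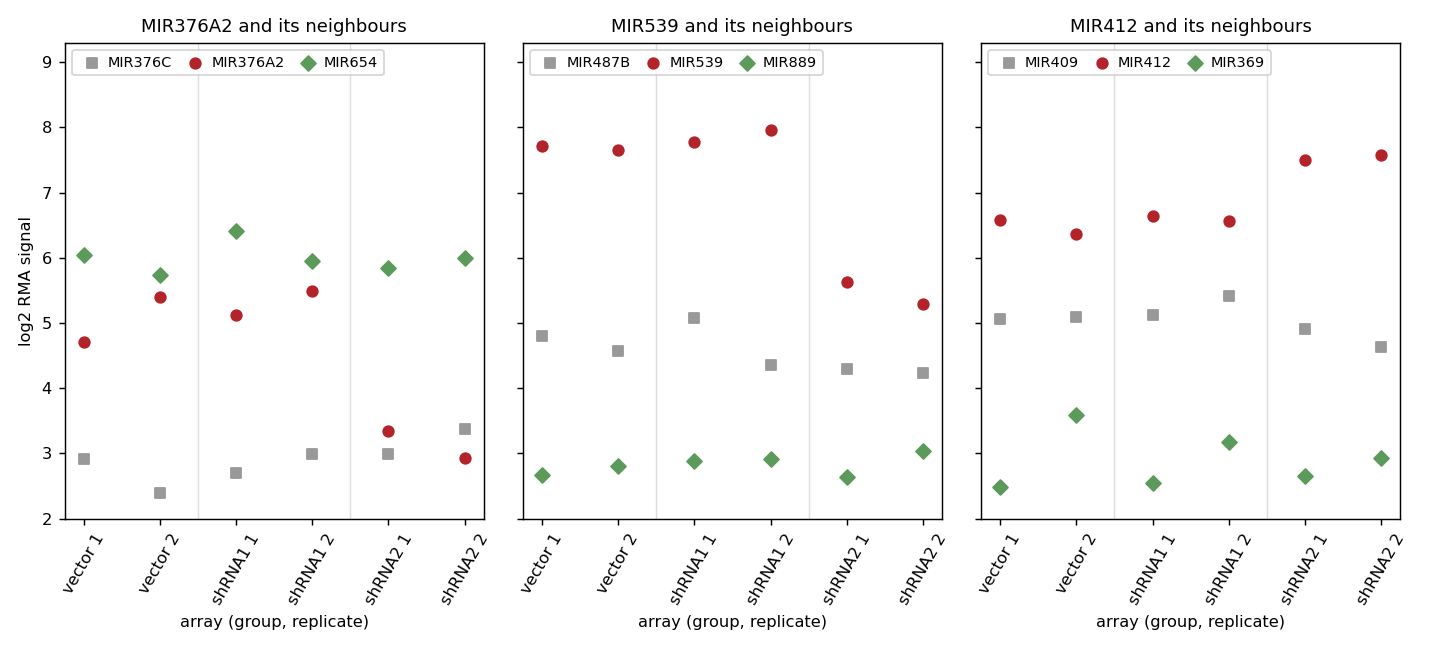
Log2 RMA signal (vertical axis) on each of the 6 arrays (horizontal axis) for MIR376A2, MIR539 and MIR412 and, in each panel, the listed genes next to it along 14q32. MIR376A2 and MIR539 drop and MIR412 stands higher on the 2 shRNA2 arrays only, while the neighbours differ from vector by 0.53 at most with shRNA2. Heights of different probe sets are not comparable.

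Of the other members, MIR544A had the lowest difference with shRNA2 and MIR411 the highest. MIR544A read 4.20 and 4.18 in vector, 4.34 and 3.86 in shRNA1, and 3.32 and 3.63 in shRNA2 cells, a difference of -0.71 ± 0.21. MIR411 read 2.87 and 2.85 in vector, 2.997 and 3.273 in shRNA1, and 2.91 and 3.98 in shRNA2 cells. Its difference of 0.59 ± 0.32 rested on 1 array, and was 0.05 without shRNA2 replicate 2. MIR495 read 3.85 and 3.48 in vector, 4.02 and 3.33 in shRNA1, and 3.78 and 4.36 in shRNA2 cells, with overlapping groups.

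Across the cluster, 11 members (22%) differed by more than 0.5 in size with shRNA2, beside 22.7% of other microRNA probe sets and 15.9% of all named probe sets. With shRNA1, 2 members (4%) did, beside 9.18% and 10.1%. In 18 members both shRNA2 arrays were below both vector arrays, beside 30.6% of all named probe sets. In 9 members both were above, beside 21.6%. The 18 were MIR493, MIR127, MIR379, MIR380, MIR758, MIR494, MIR376A2, MIR376B, MIR487B, MIR539, MIR544A, MIR487A, MIR382, MIR668, MIR377, MIR541, MIR409 and MIR656. The 9 were MIR411, MIR329-1, MIR376C, the first probe set of MIR376A1, MIR300, MIR381, MIR496, MIR412 and MIR410. MIR134, whose product limits dendritic spine size in rat neurons, differed by -0.13 ± 0.20 and its arrays overlapped.

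Among members with a shared seed, some pairs had like differences and others did not. MIR379 and MIR411 differed with shRNA2 by -0.32 ± 0.16 and 0.59 ± 0.32. MIR487B and MIR487A, which share the seed UGGUUAU on their 5′ arms, differed by -0.42 ± 0.25 and -0.33 ± 0.20. MIR300 and MIR381 differed by 0.22 ± 0.19 and 0.37 ± 0.19. The near-identical hairpins of MIR329-1 and MIR329-2 (79 of 80 bases) gave 0.48 ± 0.27 and 0.02 ± 0.31, and those of MIR1185-1 and MIR1185-2 (84 of 86 bases) gave -0.05 ± 0.30 and 0.20 ± 0.33.

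By position, the 9 members before MIR379 (MIR770 to MIR370) had a median difference of 0.24 with shRNA1 and 0.02 with shRNA2, and none differed by more than 0.5 in size with shRNA2. This stretch includes MIR770, which lies in an intron of MEG3, and MIR431, MIR127, MIR432 and MIR136, which lie antisense to RTL1. With shRNA2, MIR770 differed by 0.18 ± 0.22, MIR431 by 0.15 ± 0.30, MIR432 by -0.15 ± 0.23 and MIR136 by -0.14 ± 0.27. The 41 probe sets from MIR379 to MIR656, a block known in rodent neurons for its activation by MEF2, had medians of 0.16 and -0.05, and 11 of them (26.8%) differed by more than 0.5 in size with shRNA2, beside the 22.7% of other microRNA probe sets.

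The direct comparison of the shRNA lines asked where the 2 shRNAs gave different values. Of the members, 15 were higher and 35 lower with shRNA2 than with shRNA1, a split that became 25 to 25 with arrays centred on their medians and 17 to 33 after quantile normalization. Centring moved the median of all named probe sets by 0.104. The member median was -0.10, beside -0.18 for other microRNA genes and -0.08 for all named probe sets. MIR539 (-2.41 ± 0.17, SE) and MIR376A2 (-2.17 ± 0.27) were again lowest, followed by MIR376B (-0.92 ± 0.29), and MIR412 (0.94 ± 0.15), MIR323A (0.75 ± 0.42) and MIR495 (0.39 ± 0.29) were highest. MIR539 was the 1 probe set of all those named (0.00621%) that passed the adjusted p threshold, the observation on which the cluster was taken up. In 18 members both shRNA2 arrays lay below both shRNA1 arrays, beside 32.2% of all named probe sets, and in 3 they lay above, beside 18%.

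The 2 comparisons with vector share the vector arrays. Side by side, 22 members had both differences above 0, 5 had both below, 20 were above with shRNA1 and below with shRNA2, and 3 the reverse. In 7 members (14%) both shRNA1 arrays were above and both shRNA2 arrays below both vector arrays, which held for 6.04% of other microRNA probe sets and 3.62% of all named probe sets. They were MIR493, MIR758, MIR376B, MIR539, MIR668, MIR409 and MIR656. The count used the values as deposited and was not repeated with arrays centred on their medians. MIR758, for example, read 6.46 and 6.27 in vector, 6.81 and 6.54 in shRNA1, and 5.82 and 5.85 in shRNA2 cells. MIR656, the last gene of the cluster, read 3.77 and 3.90 in vector, 3.97 and 4.43 in shRNA1, and 3.26 and 3.45 in shRNA2 cells.

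**Figure D4:**
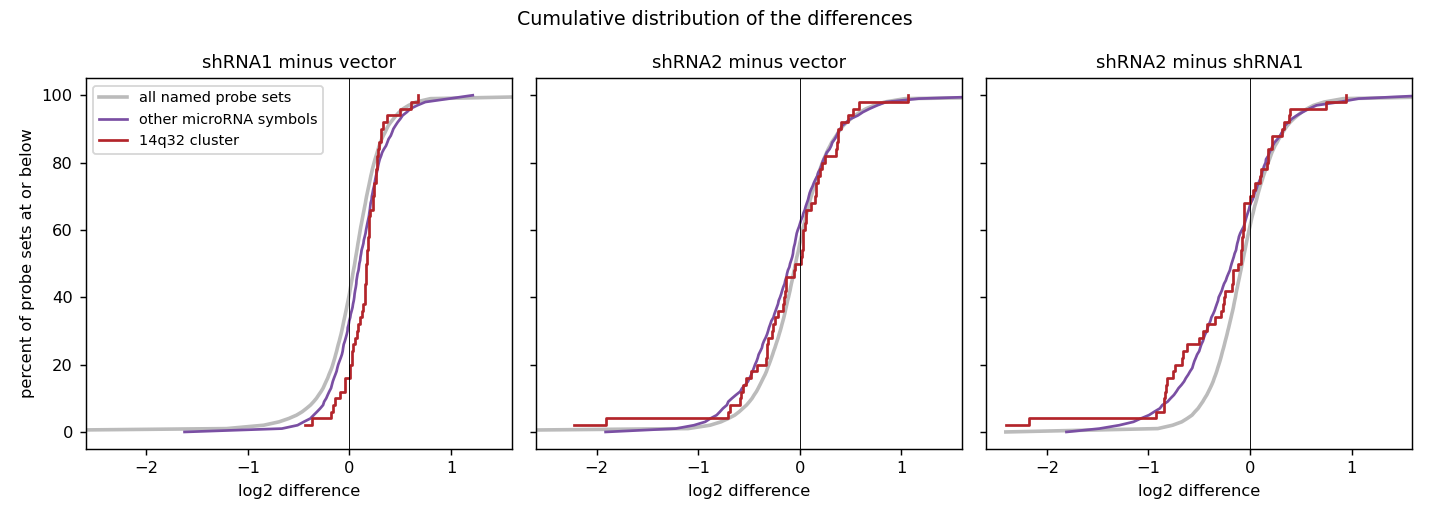
Percent of probe sets at or below a given log2 difference (horizontal axis) for the 50 members, the 1176 probe sets of other microRNA genes and all 16098 named probe sets, in the 3 comparisons. The member curve lies to the right of the others in its lower and middle part for shRNA1 (median 0.17). At its upper end it reaches no further than 0.68. For shRNA2 it lies to the right of that of other microRNA genes around 0, with 50% of members and 38.2% of other microRNA probe sets above 0. MIR539 and MIR376A2 stand apart at its lower end.

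Other microRNA genes gave differences of like size. MIR1302-7 read 4.66 and 5.34 in vector, 5.19 and 4.60 in shRNA1, and 3.41 and 2.76 in shRNA2 cells, and was the lowest of the other microRNA genes called with shRNA2 (-1.91 ± 0.32, limma adjusted p = 0.0336). This call was lost when any vector or shRNA2 array was left out, with differences of -2.25 without vector replicate 1, -1.57 without vector replicate 2, -2.23 without shRNA2 replicate 1 and -1.59 without shRNA2 replicate 2. MIR548I2, the highest called with either shRNA, read 4.74 and 4.34 in vector, 5.52 and 5.91 in shRNA1, and 6.33 and 6.57 in shRNA2 cells. MIR4500, the lowest called with shRNA1, read 5.27 and 4.88 in vector, 3.59 and 3.31 in shRNA1, and 3.83 and 3.60 in shRNA2 cells. Both genes stood on the same side of vector with both shRNAs. With shRNA1 the difference of MIR548I2 was 1.17 ± 0.21 (adjusted p = 0.0454), which lost its call with arrays centred (1.11), after quantile normalization (1.10) and with any array left out (0.97 to 1.38). That of MIR4500 was -1.62 ± 0.20 (adjusted p = 0.00987), and it lost its call without vector replicate 1 (-1.43) or shRNA1 replicate 2 (-1.48). Both of these shRNA1 calls were also lost with all probe sets in the fit and with the methods' t-test. That of MIR548I2 was lost with only the 4 arrays compared as well. The shRNA2 difference of MIR548I2, 1.91 ± 0.21 (adjusted p = 0.00756), lost its call without shRNA2 replicate 1 (2.03) or 2 (1.79). With the methods' t-test, the shRNA2 calls of MIR548I2 and MIR1302-7 were both lost, since it called no other microRNA probe set.

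The other genes of the domain did not pass the test in any comparison, at 0 of 8 probe sets for 5 of 8 listed genes (DLK1, MEG3, RTL1, MEG9 and BEGAIN). Their median difference was 0.03 with shRNA1 and -0.09 with shRNA2. The largest differences with shRNA2 were those of 1 probe set each of MEG9 (-0.40 ± 0.17, limma adjusted p = 0.267) and RTL1 (-0.35 ± 0.15, adjusted p = 0.29). That RTL1 probe set read 7.09 and 7.16 in vector, 7.40 and 7.16 in shRNA1, and 6.80 and 6.75 in shRNA2 cells, so that both shRNA2 arrays were below the rest. The other probe set of RTL1 differed by 0.04 ± 0.29 with shRNA2, and that of MEG9 by -0.02 ± 0.22. MEG3, the maternally expressed host of MIR770, read 5.32 and 5.33 in vector, 5.69 and 5.31 in shRNA1, and 5.05 and 5.16 in shRNA2 cells with its brighter probe set. None of the 4 probe sets of the flanking genes YY1, WARS1 and WDR25 passed either.

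Of 25 listed genes of microRNA processing, 12 had a probe set and none passed in any comparison. Their median difference was 0.08 with shRNA1 and -0.21 with shRNA2, beside 0.05 and -0.04 for all named probe sets. XPO5, the exporter of hairpins, read 11.26 and 10.93 in vector, 11.26 and 10.83 in shRNA1, and 10.65 and 10.62 in shRNA2 cells (-0.46 ± 0.20 with shRNA2, limma adjusted p = 0.278). LIN28A, which binds let-7 precursors, differed by -0.40 ± 0.19 with shRNA2. Among 10 listed regulators of the cluster (18 probe sets), DNMT3B, a de novo DNA methyltransferase, was lower with shRNA2. It read 7.74 and 7.98 in vector, 7.07 and 7.26 in shRNA1, and 6.58 and 6.93 in shRNA2 cells. The difference was -1.11 ± 0.19 with shRNA2 (adjusted p = 0.0326) and -0.70 ± 0.19 with shRNA1 (adjusted p = 0.159), and the difference between the shRNA lines, -0.41, had an adjusted p of 0.352. The shRNA2 call was lost when either vector array or either shRNA2 array was left out, with differences of -1.23 without vector replicate 1, -0.98 without vector replicate 2, -0.93 without shRNA2 replicate 1 and -1.28 without shRNA2 replicate 2. The part of DNMT3B in the microRNA values was not tested. No other regulator probe set passed. With shRNA1 and shRNA2, 1 probe set of MEF2C differed by -0.98 ± 0.26 and -0.83 ± 0.26 (adjusted p = 0.152 and 0.145). The other MEF2C probe set differed by 0.12 ± 0.19 and 0.06 ± 0.19, MEF2D by -0.45 ± 0.17 and -0.36 ± 0.17, and MEF2A by -0.19 ± 0.19 and -0.13 ± 0.19. Several ZFP57 probe sets had identical values, so the 18 are not all separate measurements. KDR, in the list of endothelial markers, was lower with both shRNAs (-1.52 ± 0.20 for shRNA1, adjusted p = 0.0125, and -1.54 ± 0.20 for shRNA2, adjusted p = 0.0123), while PECAM1 and VWF stayed between 5.12 and 5.88 on all arrays. The KDR call with shRNA1 was lost without vector replicate 1 (-1.37), shRNA1 replicate 1 (-1.52) or shRNA1 replicate 2 (-1.53), and that with shRNA2 without vector replicate 1 (-1.38), shRNA2 replicate 1 (-1.75) or shRNA2 replicate 2 (-1.33). With all probe sets in the fit and with the methods' t-test, the KDR call with shRNA1 was lost too.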

How the data were processed

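Log2 signals of 53617 probe sets on 6 arrays were analysed as deposited. The authors labelled 250 ng of total RNA per array and processed the scans in Affymetrix Expression Console with RMA (background correction, quantile normalization and a log2 summary per probe set); versions are not given in the sources used here. GEO's platform annotation named 16098 probe sets with exactly 1 symbol, and the 37519 unnamed ones were left out of the main fit. A model of 3 group means was fitted to all 6 arrays with limma 3.58.1 in R 4.3.3 (3 residual degrees of freedom, prior 4.16), with Benjamini-Hochberg adjustment over all named probe sets and a threshold of 0.05. The study names no test for the arrays, so the test behind its own list of changed genes is not known. The methods' t-test here is the equal-variance form of the t-test that the study names for in vitro data. Other microRNA genes are symbols of MIR plus digits outside the cluster, without 26 host-gene symbols. The members, lists and tests were chosen with earlier results of these data known. Per-array values are given for members called in any comparison, for the 3 highest and 3 lowest in each comparison and for the MIR376 family; values of neighbours, seed partners and members on opposite sides of vector were added after they had been seen. Of the lists, called genes or else the 2 largest differences are named, and the MEF2 genes were added after their values had been seen. Scripts were tested on simulated data. The number of arrays limits the precision. Other fits, scalings, filters and each array left out were tried as alternatives.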

Additional observations from a re-analysis of the deposited data

Results flagged for a closer look

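Each of 7 members had both shRNA1 arrays above and both shRNA2 arrays below both vector arrays, although no member passed the adjusted p threshold with shRNA1 and, of these 7, MIR539 alone passed it with shRNA2. The differences, shRNA2 minus shRNA1, were -2.41 for MIR539, -0.92 for MIR376B, -0.85 for MIR656, -0.84 for MIR758, -0.82 for MIR493, -0.75 for MIR668 and -0.5 for MIR409. MIR539 was picked out for this difference, and for the other 6 the difference between the shRNA lines did not pass the adjusted p threshold in limma. The pattern in this direction was present in 14% of the members, 6.04% of other microRNA probe sets and 3.62% of all named probe sets, and its cause was not tested. It was counted on the values as deposited. The medians of all values were 6.18 and 6.16 on the vector arrays, 6.30 and 6.18 with shRNA1, and 6.15 and 6.12 with shRNA2. Whether the pattern holds with arrays centred on their medians was not tested.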

How the results depend on the processing

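No member was called with shRNA1 under any of the 14 alternatives. With shRNA2 against vector, 3 calls became 1 (MIR539) with all probe sets in the fit, beside 0.882% of all named probe sets. With the methods' t-test they became 0, beside 0.0124%. Leaving out a vector or shRNA2 array gave fewer calls among the members and among all named probe sets. The member median of -0.02 ranged from -0.1712 to 0.0102 when 1 array was left out. With shRNA2 against shRNA1, the 1 call became 0 with only the 4 arrays compared, with all probe sets and with the methods' t-test, and 0 whichever array was left out, and the median was -0.25 with dim probe sets left out (12 members). For a group left with 1 array, the spread of the remaining groups was assumed. In a fit with replicate block, the calls were 0 and 3 against vector and 8 between the shRNA lines (MIR493, MIR758, MIR376A2, MIR539, MIR668, MIR377, MIR412 and MIR656), while over all named probe sets 301, 414 and 1 calls became 535, 1180 and 370. The block also turned the DNMT3B difference with shRNA1, -0.70, into a call (limma adjusted p = 0.0457, the lowest over the alternatives, the highest being 0.619). Same-numbered arrays deviated together with r = 0.626 for vector and shRNA1, 0.145 for vector and shRNA2 and 0.15 for the 2 shRNA lines over all named probe sets, and with 0.254, -0.187 and -0.0631 over the members; the labels tie the numbers to nothing shared. Over all named probe sets, the counts with shRNA1 ran from 1 (t-test) to 535 and those with shRNA2 from 2 (t-test) to 1180. Among 44 differences of single member probe sets that were not called, the alternatives gave 31 sign changes, 24 of them with 1 array left out. These fell on 16 pairs of gene and comparison, with the 2 probe sets of MIR376A1 counted as 1 gene. The largest difference that changed sign was 0.39 in size. The cause of these changes was not tested. Without detection calls, signals near the low end of the range set no limit on expression.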
